A study of Mus musculus with 24 samples.

Results

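Tamoxifen induction was examined in the cortex of mice of the TREM2-R47H line, by setting 6 libraries labelled Induced against 6 labelled Control. The 12 libraries were all those of 24 whose labels give the genotype TREM2-R47H+/+; Cx3cr1CreER/+, and all genes of the count table were included. Each library is bulk RNA sequencing of poly-A RNA from the cortex of 1 mouse, and Trem2, Slc17a7 and the other markers named here were read as CPM, counts scaled to a common library total.

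R47H_induced mice were homozygous for the TREM2-R47H construct, carried 1 Cx3cr1CreER allele on a C57BL/6 background and received tamoxifen. R47H_control mice had the same genotype and strain and received corn oil, the vehicle. WT_induced and WT_control mice, 6 of each, carry the label TREM2-WT in place of R47H and entered the fit as well as 1 comparison of the inductions. Both R47H groups carry the R47H form and the Cre allele, so neither shows a mouse without them. Cx3cr1CreER is a Cre recombinase that acts only once tamoxifen is present, driven by the promoter of the fractalkine receptor, which microglia use most in the brain and which border macrophages and some blood monocytes also use. No group that received tamoxifen without Cre was analysed here, so an effect of the drug and an effect of the induced TREM2 cannot be told apart. Age is not stated in the labels, and sex is given only as 3 males and 3 females per group.

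TREM2 is a receptor on the surface of microglia, the brain's own macrophages. It binds lipids, lipoproteins and debris, and signals through the adaptor Tyrobp and the kinase Syk to support microglial survival, uptake and the switch to a disease-associated state. R47H is a coding variant of human TREM2 that weakens ligand binding and is known as a risk factor for Alzheimer's disease. Resting microglia are recognised by genes such as P2ry12, Tmem119 and Cx3cr1, and these are usually lower where microglia turn to the disease-associated state marked by Apoe, Cst7, Itgax and Clec7a.

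No gene passed the test in R47H mice. Of 19678 tested genes 0 (0%) had an adjusted p below 0.05 in edgeR's quasi-likelihood test with Benjamini-Hochberg adjustment, and the lowest adjusted p was 0.429. At an unadjusted p below 0.05 there were 1006 genes (5.11%), close to the 983.9 that this threshold gives with no change, of which 531 (2.7%) were higher and 475 (2.41%) lower in R47H_induced. Scaled by library totals alone, the same counts were 1817 higher and 150 lower. DESeq2 called 4 genes, limma-voom 0, and edgeR on the 12 R47H libraries alone called 1 of its tested genes (0.00531%), Per1. The median log2 fold change was 0.00, the middle 50% of genes lay between -0.05 and 0.05, and 2.27% of genes were more than 0.5 from 0. The values that follow are therefore descriptions of size and spread, and none is a call unless this is stated.

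Total counts were 27933505 to 56082520 in R47H_induced and 31025034 to 39902640 in R47H_control. Yam1, AY036118 and Lars2, which are known to collect reads of ribosomal RNA, together took 17.0% ± 1.69 of the counts in R47H_induced and 20.3% ± 2.73 in R47H_control (SD, n = 6 each), a difference of -3.29 points (two-sided exact permutation p = 0.0281). Leaving out 1 library moved that p above 0.05 in 4 of 12 cases. WT_induced replicate 6, which enters the shared fit, stood apart: its summed antigen presentation genes were at 1113 CPM, against 150 to 274 CPM in the other WT_induced libraries, and its pan-microglial genes at 720 CPM, against 373 to 428 CPM. Its rRNA-like share was the highest of its group, where the other 5 libraries held 14.7% to 20.3%. Some results that change without it, or with that share as a further term in the model, are given both ways. Others are given for the main fit only, so a value given once need not be stable to these choices. The tissue label was checked with Slc17a7, the vesicular glutamate transporter of cortical neurons, which stood at 883 to 1026 CPM in R47H_induced and 860 to 1001 CPM in R47H_control. Drd2, a dopamine receptor of the striatum, was at 17.8 to 24.4 CPM in R47H_induced and 20.0 to 22.9 CPM in R47H_control. Ttr, the transthyretin of the choroid plexus, ranged from 5.76 to 565 CPM in R47H_induced and from 16.7 to 486 CPM in R47H_control, a wide spread within both groups.

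Genes that neurons switch on with activity mostly had log2 fold changes above 0, though none passed over all genes in the fit over 24 libraries. These immediate early genes encode transcription factors, phosphatases and synaptic proteins that are transcribed within minutes of a stimulus, and many carry cAMP response elements, the sites of the activity-dependent factor CREB. Glucocorticoid response genes are turned on by the stress hormone corticosterone through its nuclear receptor, and circadian clock genes oscillate through the day under E-boxes bound by Clock and Bmal1. Per1 belongs to all 3 lists.

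The promoters of Per1, Ciart, Nr4a1 and Arl4d are printed because these genes stand for the clock and activity groups in the results below. Each sequence is the 250 bases before the start of transcription from RefSeq, build GRCm38.p6, read 5′ to 3′ on the gene's strand. The windows are Per1 at chr11:69098699-69098948 (plus strand, 1 of 2 starts listed), Ciart at chr3:95882229-95882478 (minus strand), Nr4a1 at chr15:101266596-101266845 (plus strand) and Arl4d at chr11:101665291-101665540 (plus strand). Capitals mark the E-box CACGTG and the core of the cAMP response element TGACG, which reads CGTCA on the other strand. The full element TGACGTCA holds the core on both strands.
Per1: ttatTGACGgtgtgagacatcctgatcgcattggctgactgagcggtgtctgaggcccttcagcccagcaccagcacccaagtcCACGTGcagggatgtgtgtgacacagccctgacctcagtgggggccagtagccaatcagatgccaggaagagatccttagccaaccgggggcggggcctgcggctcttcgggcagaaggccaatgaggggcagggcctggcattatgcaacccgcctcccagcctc
Ciart: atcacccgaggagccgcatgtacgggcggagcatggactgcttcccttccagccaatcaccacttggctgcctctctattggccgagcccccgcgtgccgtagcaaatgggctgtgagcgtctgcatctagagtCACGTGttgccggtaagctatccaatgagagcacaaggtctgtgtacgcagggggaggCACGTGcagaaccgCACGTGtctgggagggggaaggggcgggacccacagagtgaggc
Nr4a1: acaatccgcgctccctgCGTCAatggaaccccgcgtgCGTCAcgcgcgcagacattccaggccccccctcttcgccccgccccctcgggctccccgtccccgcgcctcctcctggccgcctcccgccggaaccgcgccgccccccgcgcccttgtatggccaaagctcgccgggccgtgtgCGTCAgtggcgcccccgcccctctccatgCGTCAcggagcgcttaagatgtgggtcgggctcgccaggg
Arl4d: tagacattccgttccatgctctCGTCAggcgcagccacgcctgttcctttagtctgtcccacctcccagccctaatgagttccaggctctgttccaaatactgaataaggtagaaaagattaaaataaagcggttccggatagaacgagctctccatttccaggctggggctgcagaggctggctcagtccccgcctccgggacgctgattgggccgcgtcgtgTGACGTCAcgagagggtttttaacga
Per1 held 1 E-box and 1 core, Ciart 3 E-boxes, Nr4a1 4 cores, and Arl4d 3 cores, 2 of which make up 1 full element. Of 32851 RefSeq windows of the same length 6.02% held CACGTG, 17.8% held TGACG on either strand and 1.55% held TGACGTCA. Among the 29 immediate early genes 22 matched a window, of which 17 held TGACG and 5 held CACGTG. Among the 22 clock genes 18 matched, of which 6 held TGACG and 5 held CACGTG. Among the 21 glucocorticoid response genes 19 matched, of which 7 held TGACG and 4 held CACGTG. A gene was counted if any of its listed windows held the motif, whereas the shares above are per window. Genes with several starts had more chances, so these counts and shares are not on the same footing. These matches describe the letters of the windows and do not show that a factor binds there.

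Per1, a repressor of the clock that light and corticosterone also induce, was the gene of these lists that separated the groups. It had 97.0, 104 and 106 CPM (lowest, median and highest) in R47H_induced and 68.0, 80.8 and 81.7 CPM in R47H_control. Every R47H_induced library lay above every R47H_control library, which was so for 35 of all tested genes (0.178%). The log2 fold change was 0.40 (SE 0.10) with an edgeR adjusted p of 0.755 in the fit over 24 libraries, and 0.39 (SE 0.04) with an edgeR adjusted p of 0.000302 in the fit on the 12 R47H libraries. The WT libraries were more spread, at 87.0 ± 12.6 CPM in WT_induced and 95.1 ± 17.5 CPM in WT_control, and the fit over 24 libraries carries that spread into its error.

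Of 29 immediate early genes, all tested, 27 had a log2 fold change above 0 (52.7% of all genes did). At an unadjusted p below 0.05, 6 were higher and 0 were lower. The median of the 29 was 0.28. Of all genes 2.7% were higher and 2.41% lower at that threshold. The summed level of the list was 1150 to 1629 CPM in R47H_induced and 889 to 1510 CPM in R47H_control. R47H_control replicate 5 held the highest control sum and the next highest was 1218 CPM, within the range of R47H_induced.

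Nr4a1, an orphan nuclear receptor induced by activity, had 50.6, 70.6 and 100.4 CPM in R47H_induced and 29.6, 40.4 and 99.0 CPM in R47H_control (lowest, median, highest). R47H_control replicate 5 held the highest value of its group, and the other 5 lay at 44.9 CPM or less, below every R47H_induced library. The log2 fold change was 0.65 (SE 0.32) with an edgeR adjusted p of 0.970. Arc, a capsid-like protein of active synapses, was also highest in R47H_control replicate 5, and 2 further R47H_control libraries reached the lower R47H_induced ones. Arc had 99.3, 137 and 198 CPM in R47H_induced and 50.8, 79.8 and 188 CPM in R47H_control, with a log2 fold change of 0.59 (SE 0.38). The groups of Arl4d overlapped as well. Arl4d, a small GTPase, had 14.0, 17.0 and 20.4 CPM in R47H_induced and 10.2, 11.9 and 17.9 CPM in R47H_control, at 0.43 (SE 0.17).

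Without R47H_control replicate 5, 28 of 29 immediate early genes were positive, 15 had an unadjusted p below 0.05 (2.79% of all genes were higher at that threshold), and the median was 0.42. Nr4a1 was then at a log2 fold change of 1.002 and Arc at 0.92. Without R47H_induced replicate 1, which had the highest sum, 2 members had an unadjusted p below 0.05. Over the 12 libraries left out in turn, 25 to 28 members were positive. Fos, the classical activity marker, was at 0.29 (SE 0.41), and Npas4, a factor specific to neurons, went the other way at -0.24 (SE 0.41). Dusp6, a phosphatase that shuts off ERK signalling, was at 0.35 (SE 0.14), with 41.8 to 58.7 CPM in R47H_induced and 33.1 to 47.3 CPM in R47H_control.

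**Figure D1:**
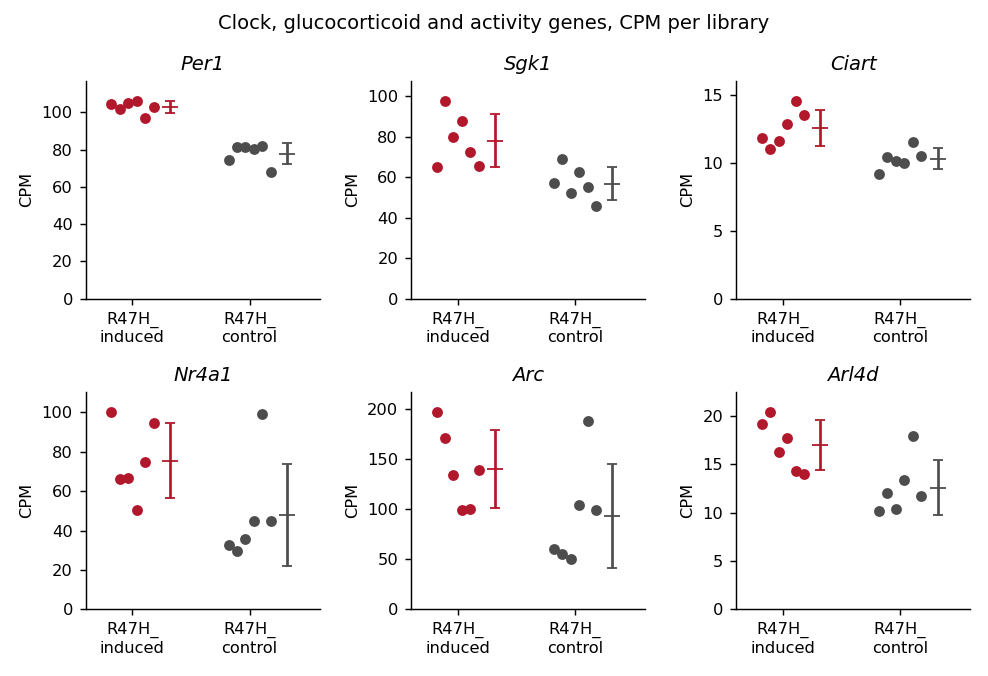
Expression of 3 clock or glucocorticoid genes (Per1, Sgk1, Ciart) and 3 activity genes (Nr4a1, Arc, Arl4d) in CPM on linear axes from 0, with 1 point per library (6 R47H_induced left, 6 R47H_control right) and mean ± SD beside them. Per1 libraries do not overlap between groups, and the highest R47H_control library of Nr4a1 (99.0 CPM) and of Arc (188 CPM) is replicate 5.

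Of 21 glucocorticoid response genes 18 were positive, with a median of 0.19, and 9 were higher and 0 lower at an unadjusted p below 0.05. Of all genes 52.7% were positive, 2.7% were higher and 2.41% lower at that threshold. Sgk1, a kinase that corticosterone induces, had 65.1, 76.4 and 97.8 CPM in R47H_induced and 45.6, 56.1 and 69.1 CPM in R47H_control. The groups overlapped only through R47H_control replicate 2, and the log2 fold change was 0.46 (SE 0.11) with an edgeR adjusted p of 0.731. Ddit4, an mTOR inhibitor, was at 0.28 (SE 0.11) and Arrdc2, an arrestin-like protein, at 0.28 (SE 0.11). Tsc22d3, the leucine zipper protein GILZ, was at 0.19 (SE 0.09), whereas Fkbp5, a co-chaperone of the receptor and one of the usual readouts of the hormone, was at 0.02 (SE 0.06). Leaving out 1 of the 12 libraries gave 3 to 11 members higher and 0 to 1 lower at the same threshold. The 3 were reached without R47H_control replicate 6. DESeq2 gave 9 higher and 1 lower.

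Of 22 clock genes 18 were positive, with a median of 0.07, and 7 were higher and 0 lower at an unadjusted p below 0.05. The shares over all genes were 52.7% positive, 2.7% higher and 2.41% lower. Leaving out 1 of the 12 libraries gave 4 to 9 members at that threshold, and without R47H_control replicate 1 there were 4 and the median was 0.04. With the rRNA-like share in the model there were also 4. Ciart, a repressor of Clock and Bmal1, had 11.0, 12.4 and 14.6 CPM in R47H_induced and 9.15, 10.3 and 11.5 CPM in R47H_control, and its log2 fold change was 0.29 (SE 0.09). Per3 was at 0.20 (SE 0.08) and Nfil3, which represses D-box genes, at 0.27 (SE 0.09). Per2 was at 0.08 (SE 0.16), with 1 group nested in the other: 27.9 to 38.2 CPM in R47H_induced and 19.0 to 41.6 CPM in R47H_control. Arntl, which encodes Bmal1, was at -0.00 (SE 0.05), and Dbp, an output gene of the clock that shares 18% of its exon bases with Sphk2, at 0.09 (SE 0.06). The labels do not state the hour at which each cortex was taken, and its part in these values was not tested.

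**Figure D2:**
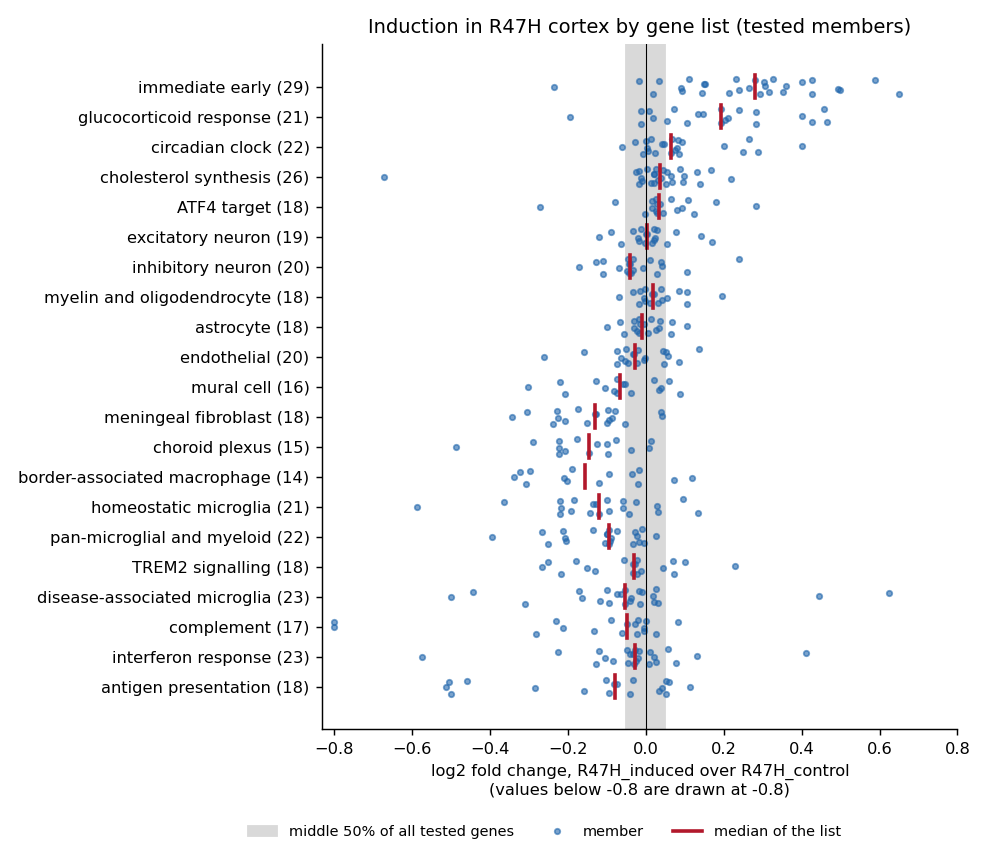
Log2 fold change of R47H_induced over R47H_control for the tested members of 21 gene lists, 1 point per gene (values below -0.8 drawn at -0.8), with the list's median as a bar and the middle 50% of all tested genes shaded (-0.05 to 0.05). The medians of immediate early (0.28) and glucocorticoid response genes (0.19) lie to the right of the band, and those of homeostatic microglia (-0.12), meningeal fibroblast (-0.13) and border-associated macrophage genes (-0.15) to the left.

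Microglial genes mostly had small log2 fold changes below 0, and none passed over all genes. Of 21 homeostatic genes 4 were positive, with a median of -0.12, and 4 were lower and 0 higher at an unadjusted p below 0.05. Of 22 pan-microglial and myeloid genes 1 was positive, with a median of -0.09, and 2 were lower. Of all genes 52.7% were positive, and 2.41% were lower at that threshold. In bulk tissue, fewer cells of a type and less RNA per cell cannot be told apart.

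Trem2 itself (chromosome 17, 48346401 to 48354147, mm10) had 6.01, 6.52 and 7.61 CPM in R47H_induced and 6.62, 8.07 and 9.08 CPM in R47H_control (lowest, median, highest). All 6 R47H_induced libraries lay below the control median, and the groups overlapped. The log2 fold change was -0.25 (SE 0.10, 95% interval -0.45 to -0.05) with an edgeR adjusted p of 0.945, and a two-sided exact permutation test of its CPM alone gave p = 0.0195, where the smallest p the 924 assignments allow is 0.00216. The labels state neither the species nor the sequence of the construct, so counts of mouse Trem2 need not include its reads and do not check the labels.

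The purine receptor P2ry12, with which resting microglia sense nucleotides, had 24.2, 29.9 and 36.5 CPM in R47H_induced and 33.0, 34.5 and 37.3 CPM in R47H_control. R47H_induced replicate 1 reached the control range and the other 5 were below it, and the log2 fold change was -0.22 (SE 0.06) with an edgeR adjusted p of 0.791. Cx3cr1, the fractalkine receptor and the gene whose promoter drives Cre here, had 16.2 to 18.5 CPM in R47H_induced and 19.1 to 21.1 CPM in R47H_control, with no overlap, as for 32 of all tested genes in that direction (0.163%). Its log2 fold change was -0.22 (SE 0.07) with an edgeR adjusted p of 0.945. The CreER allele sits in the Cx3cr1 gene in the lines of this kind commonly used, and both groups carry 1 copy.

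Gpr34, a lysophosphatidylserine receptor, was at -0.36 (SE 0.13), with 5.85, 7.88 and 11.5 CPM in R47H_induced and 10.2, 10.5 and 12.2 CPM in R47H_control. P2ry13, another purine receptor, was at -0.22 (SE 0.09). Of 4 further homeostatic markers, Siglech was at -0.18 (SE 0.12) and Tmem119 at -0.14 (SE 0.11). The transcription factor Sall1 was at -0.12 (SE 0.07) and Csf1r, the receptor microglia need to survive, at -0.09 (SE 0.06). The 4 of 21 homeostatic genes that were positive are not among those named here. The summed level of the homeostatic list overlapped between groups, at 1752 to 1861 CPM in R47H_induced and 1807 to 1869 CPM in R47H_control. The exons of Csf1r share 15.1% of their bases with Hmgxb3, so its reads are uncertain in a library that does not mark strand. Laptm5, a lysosomal membrane protein of myeloid cells named after its values were seen, averaged 18.9 CPM in R47H_induced and 21.8 CPM in R47H_control. Its groups did not overlap, as for 0.163% of all genes in that direction. The log2 fold change was -0.21, also on the 12 R47H libraries (SE 0.05, edgeR adjusted p 0.405). With the rRNA-like share in the model it was -0.10 (SE 0.11), and without WT_induced replicate 6 as well -0.19 (SE 0.06).

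Of the named adaptors and effectors downstream of TREM2, Tyrobp, Plcg2 and Inpp5d had log2 fold changes near 0, and Syk was lower. Of 18 tested genes of TREM2 signalling, among 21 listed, 5 were positive. Trem2, which was lower, was the 1 member at an unadjusted p below 0.05, against 3 without WT_induced replicate 6. Of all genes 52.7% were positive and 2.41% were lower at that threshold. Tyrobp, the adaptor that carries the signal, had 5.16 to 6.33 CPM in R47H_induced and 5.19 to 6.29 CPM in R47H_control, at -0.02 (SE 0.16). Syk was at -0.15 (SE 0.13), the phospholipase Plcg2 at -0.01 (SE 0.14) and the phosphatase Inpp5d at -0.03 (SE 0.08).

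**Figure D3:**
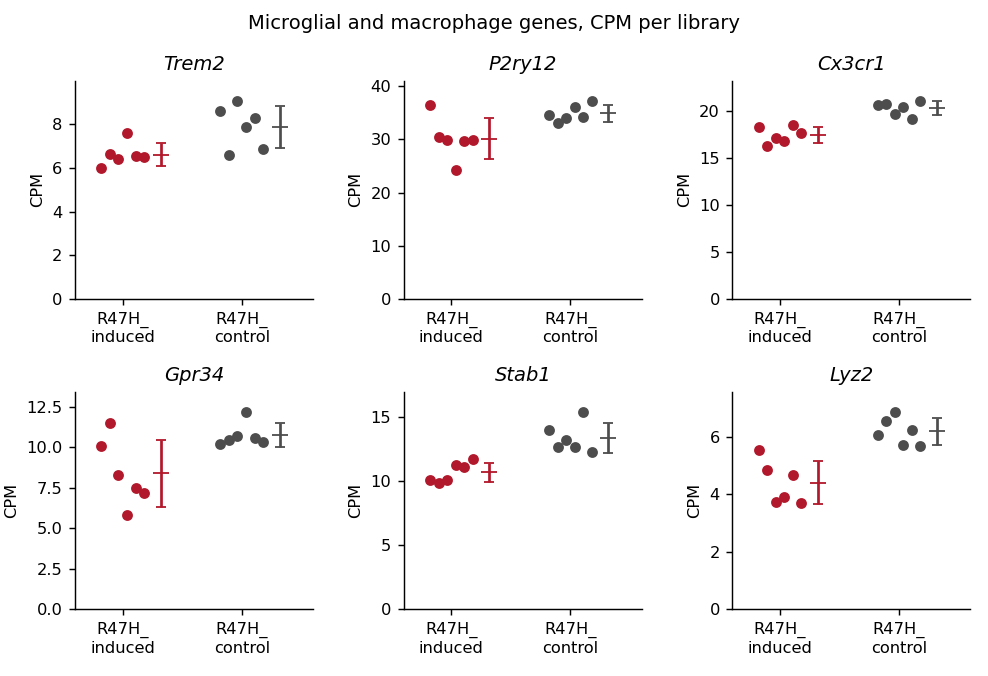
Expression of Trem2, the homeostatic genes P2ry12, Cx3cr1 and Gpr34, the border macrophage gene Stab1 and the lysozyme gene Lyz2 in CPM on linear axes from 0, with 1 point per library (6 R47H_induced left, 6 R47H_control right) and mean ± SD beside them. Cx3cr1, Stab1 and Lyz2 do not overlap between groups, and Trem2, P2ry12 and Gpr34 do.

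Disease-associated genes lay slightly below 0 as well, where 52.7% of all genes were positive. Of 23 tested members, among 26 listed, 6 were positive, with a median of -0.05, and 0 had an unadjusted p below 0.05 in either direction, against 1 higher and 1 lower without WT_induced replicate 6. Apoe, the lipid carrier of glia, was at 828 to 984 CPM in R47H_induced and 892 to 1070 CPM in R47H_control, at -0.05 (SE 0.06). Cst7 and both gene IDs of Clec7a were below the filter, with 90, 70 and 20 counts over the 12 libraries, and Itgax was at 0.110 to 0.255 CPM in R47H_induced and 0.194 to 0.370 CPM in R47H_control. Lyz2, the lysozyme of macrophages, had 3.72, 4.30 and 5.55 CPM in R47H_induced and 5.70, 6.17 and 6.89 CPM in R47H_control, with no overlap. Its log2 fold change was -0.50 with an SE of 0.51 in the fit over 24 libraries, and -0.51 (SE 0.10) with an edgeR adjusted p of 0.363 in the fit on the 12 R47H libraries. Without WT_induced replicate 6 the fold change was -0.50 with an SE of 0.14 and an edgeR adjusted p of 0.587.

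In the fit on the 12 R47H libraries, 8 of 21 homeostatic and 8 of 22 pan-microglial genes were lower at an unadjusted p below 0.05, where 3% of all genes were. Without WT_induced replicate 6 alone they numbered 8 and 7. With the share of rRNA-like counts as a further term over all libraries, the pan-microglial list had 15 of 22 members positive and a median of 0.05, and the homeostatic list 5 of 21 positive and a median of -0.05, where 52.5% of all genes were positive. P2ry12 was then at -0.21 (SE 0.07), Cx3cr1 at -0.13 (SE 0.07) and Lyz2 at 0.05. With that term and without WT_induced replicate 6, the pan-microglial list had 3 of 22 members positive and a median of -0.06, the homeostatic list 4 of 21 and -0.09, where 52.6% of all genes were positive. Lyz2 was then at -0.38 (SE 0.15). The disease-associated list turned from 6 of 23 members positive to 14 with that term and to 11 with it and without WT_induced replicate 6, and the TREM2 signalling list from 5 of 18 to 11 and 6. Scaled by library totals, which put 75.5% of all genes above 0, they had 13 of 23 and 11 of 18 positive.

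Complement, interferon and antigen presentation genes had medians slightly below 0, where 52.7% of all genes were positive. Of 17 complement genes 3 were positive, of 23 tested interferon genes 8 and of 18 antigen presentation genes 6, with medians of -0.05, -0.03 and -0.08. These directions turned with the rRNA-like share in the model, where 13 of 17, 22 of 23 and 18 of 18 were positive, with medians of 0.11, 0.27 and 0.40. With that term and without WT_induced replicate 6 the counts were 6, 13 and 11, with medians of -0.05, 0.04 and 0.04. Of all genes 52.5% were positive with that term, and 52.6% with it and without WT_induced replicate 6. Scaled by library totals, which put 75.5% of all genes above 0, the positive genes were 9 complement, 16 interferon and 8 antigen presentation genes. C1qa, the initiator of the classical cascade, was at -0.03 (SE 0.17) and Irf7, a transcription factor of the interferon response, at -0.03 (SE 0.56). Without WT_induced replicate 6 their SEs were 0.0967 and 0.33. C5ar1, the receptor of the complement fragment C5a, was the 1 member of these 3 lists at an unadjusted p below 0.05 in the fit over 24 libraries, at -0.80 (SE 0.32) and a level of 0.20 ± 0.07 CPM in R47H_induced and 0.37 ± 0.13 CPM in R47H_control (SD, n = 6 each). Cd74, the chaperone of MHC class II, had 3.17, 4.55 and 5.82 CPM in R47H_induced and 4.17, 6.72 and 7.61 CPM in R47H_control. Its log2 fold change was -0.50 with an SE of 0.81, and an SE of 0.15 and an edgeR adjusted p of 0.786 in the fit on the 12 R47H libraries. With the share of rRNA-like counts in the model it was 0.45 (SE 0.77), and with that term and without WT_induced replicate 6 it was -0.40 (SE 0.30). Without that library alone, 3 complement genes and 1 antigen presentation gene were lower at an unadjusted p below 0.05, against 528 of all genes. In the fit on the 12 R47H libraries these numbers were 3 and 6, where 3% of all genes were lower at that threshold. Without R47H_control replicate 2, 0 complement genes were, and 15 interferon genes were positive. C3, the central complement component, spread from 0.24 to 5.51 CPM within R47H_induced and from 0.62 to 9.38 CPM within R47H_control.

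Genes of border macrophages and meningeal fibroblasts mostly had log2 fold changes below 0. The direction of endothelial genes turned with the rRNA-like share in the model. Of 14 border-associated macrophage genes 2 were positive, with a median of -0.15, and 2 were lower at an unadjusted p below 0.05. The shares over all genes were 52.7% positive and 2.41% lower. Leaving out 1 of the 12 libraries gave a median of -0.19 to -0.06, nearest 0 without R47H_induced replicate 2 or R47H_control replicate 2. Stab1, a scavenger receptor of these macrophages, had 9.87, 10.6 and 11.7 CPM in R47H_induced and 12.3, 12.9 and 15.4 CPM in R47H_control, with no overlap. Its log2 fold change was -0.32 (SE 0.08) with an edgeR adjusted p of 0.668. F13a1, a transglutaminase of macrophages, was at -0.30 (SE 0.14), the haemoglobin scavenger Cd163 at -0.19 (SE 0.10) and the mannose receptor Mrc1 at -0.04 (SE 0.14).

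Of 18 meningeal fibroblast genes 2 were positive, with a median of -0.13, and 6 were lower at an unadjusted p below 0.05. Of all genes 52.7% were positive and 2.41% were lower at that threshold. Gjb2, a gap junction protein of the meninges, had 6.89, 7.38 and 8.61 CPM in R47H_induced and 7.55, 9.78 and 11.4 CPM in R47H_control, and its log2 fold change was -0.34 (SE 0.09) with an edgeR adjusted p of 0.758. Islr, a secreted protein of fibroblasts, was at -0.21 (SE 0.07) and the collagen gene Col1a1 at -0.30 (SE 0.12), while the matrix proteoglycans Dcn and Lum were at -0.05 (SE 0.17) and 0.04 (SE 0.14). The summed level of the list was 313 to 406 CPM in R47H_induced and 331 to 406 CPM in R47H_control. Without R47H_control replicate 5, 2 members were lower at an unadjusted p below 0.05, and with the share of rRNA-like counts in the model also 2. The part of unequal dissection of the meninges in these values was not tested.

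Choroid plexus genes had 2 of 15 members positive and a median of -0.14, but their summed level ran from 211 to 1168 CPM within R47H_induced and from 219 to 1070 CPM within R47H_control, and leaving out 1 library moved the median between -0.41 (without R47H_induced replicate 5) and 0.05 (without R47H_induced replicate 4). Of 16 mural cell genes 5 were positive, against 52.7% of all genes. At an unadjusted p below 0.05, 2 were lower, against 2.41% of all genes. The 2 were Vtn at -0.13 (SE 0.05) and Anpep, a pericyte peptidase, at -0.30 (SE 0.13). The count of 2 was 0 with the rRNA-like share in the model, 0 with library totals, and 0 without R47H_induced replicate 3, R47H_control replicate 2 or R47H_control replicate 5. It was 1 without R47H_induced replicate 6, 3 without R47H_control replicate 3 or 4 and 4 without R47H_induced replicate 5. Of 20 endothelial genes 6 were positive, with a median of -0.03. With the rRNA-like share in the model 17 were positive, with a median of 0.06, where 52.5% of all genes were. Without WT_induced replicate 6 as well, 16 were positive, where 52.6% of all genes were. With library totals, which put 75.5% of all genes above 0, 14 were positive, with a median of 0.03. Cldn5, the tight junction protein of the blood-brain barrier, had 13.5, 14.3 and 15.5 CPM in R47H_induced and 14.5, 16.9 and 21.5 CPM in R47H_control, at -0.26 (SE 0.09), while Pecam1 was at -0.07 (SE 0.08).

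The lists of excitatory and inhibitory neurons, astrocytes and oligodendrocytes had medians inside the middle 50% of all genes, and that of reactive astrocytes was below it. Over all genes 52.7% were positive, and 2.7% were higher at an unadjusted p below 0.05. Of 19 excitatory neuron genes 11 were positive, with Neurod2, a cortical transcription factor, at 0.14 (SE 0.05) and Bcl11b, a factor of deep layers, at -0.12 (SE 0.04). Of 20 inhibitory neuron genes 6 were positive, with the nitric oxide synthase Nos1 at -0.13 (SE 0.04), Pvalb at 0.04 (SE 0.07) and the GABA-synthesising enzyme Gad1 at -0.04 (SE 0.05). Of 18 astrocyte genes 8 were positive, with the filament gene Gfap at -0.10 (SE 0.18). With the rRNA-like share in the model 13 were positive and Gfap was at 0.06 (SE 0.18). With that term and without WT_induced replicate 6 these were 12 and -0.09 (SE 0.09). Of 21 tested reactive astrocyte genes 4 were positive, with a median of -0.10 and 0 at an unadjusted p below 0.05, and 15 were positive with the rRNA-like share in the model and 10 with it and without WT_induced replicate 6. Of 18 oligodendrocyte genes 11 were positive, 1 of them at an unadjusted p below 0.05, and the myelin gene Mbp was at 0.04 (SE 0.06).

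Cholesterol synthesis genes had 20 of 26 members positive and a median of 0.04, with 3 higher and 1 lower at an unadjusted p below 0.05. Over all genes 52.7% were positive, 2.7% were higher and 2.41% lower at that threshold. The enzymes Lss and Cyp51 were at 0.13 (SE 0.05) and 0.14 (SE 0.05). ATF4 targets, genes of amino acid stress, had 15 of 18 members positive and a median of 0.03, with Atf4 itself at 0.18 (SE 0.05), at 70.3 to 78.3 CPM in R47H_induced and 61.9 to 73.1 CPM in R47H_control. Tamoxifen acts on oestrogen receptors, and its part in these values was not tested. Of 14 tested oestrogen response genes 6 were positive, with a median of -0.01 and 0 at an unadjusted p below 0.05. With the rRNA-like share in the model 9 were positive, with or without WT_induced replicate 6. Scaled by library totals, which put 75.5% of all genes above 0, 11 were. The receptor gene Esr1 was at -0.04 (SE 0.12) and Pgr, a classical oestrogen target, at 0.07 (SE 0.04).

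The lowest p in the comparison lay on chromosome 4. Stmn1 (chromosome 4, 134468320 to 134473843, mm10), which destabilises microtubules, had 69.5, 72.6 and 98.5 CPM in R47H_induced and 94.5, 101 and 123 CPM in R47H_control. R47H_induced replicates other than 3 lay between 69.5 and 75.9 CPM, R47H_induced replicate 3 lay within the control range, and R47H_control replicates 1 and 3 were the highest of all at 123 and 118 CPM. The log2 fold change was -0.47 (SE 0.09) with an edgeR adjusted p of 0.429, and without R47H_induced replicate 3 it was -0.55 with an edgeR adjusted p of 0.00220. DESeq2 called it with an adjusted p of 0.000118. Hmgn2, a nucleosome-binding protein encoded 0.504 Mb before Stmn1, divided the same libraries in the same way: it had 11.2 to 12.9 CPM in 5 R47H_induced libraries, 18.2 CPM in R47H_induced replicate 3, 15.8 to 17.7 CPM in 4 R47H_control libraries and 24.3 and 22.8 CPM in R47H_control replicates 1 and 3. Its log2 fold change was -0.53 (SE 0.12), and without R47H_induced replicate 3 it was -0.64 with an edgeR adjusted p of 0.0217.

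Of the 99 tested genes that start within 2 Mb of Stmn1, a window placed after Stmn1 was seen to have the lowest p, 25 had an unadjusted p below 0.05 (25.3%, against 5.11% of all genes), 10 higher and 15 lower in R47H_induced. In WT mice 8 of the 99 had one (8.08%, against 7.85% of all genes). Of the 15 named genes with the lowest p, 7 lay in this window. Sfn, the 14-3-3 sigma protein, was at -1.07 (SE 0.22) and a level of 0.39 ± 0.14 CPM in R47H_induced and 0.84 ± 0.20 CPM in R47H_control, Map3k6, a stress kinase, at -0.69 (SE 0.16), Trim63, a ubiquitin ligase known from muscle, at 1.2 (SE 0.30), Sepn1, a selenoprotein of the endoplasmic reticulum, at 0.24 (SE 0.06) and Pithd1 at 0.17 (SE 0.04). Trim63 was at a low level as well, with a mean of 0.41 CPM in R47H_induced and 0.18 CPM in R47H_control. DESeq2 also called Sfn and Map3k6, both with an adjusted p of 0.0493. Of the related genes Stmn2 was at 0.01 (SE 0.03) and Hmgn1 at -0.06 (SE 0.04). A shared stretch of chromosome that differs between individual mice was not tested, as the files hold no genotypes.

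**Figure D4:**
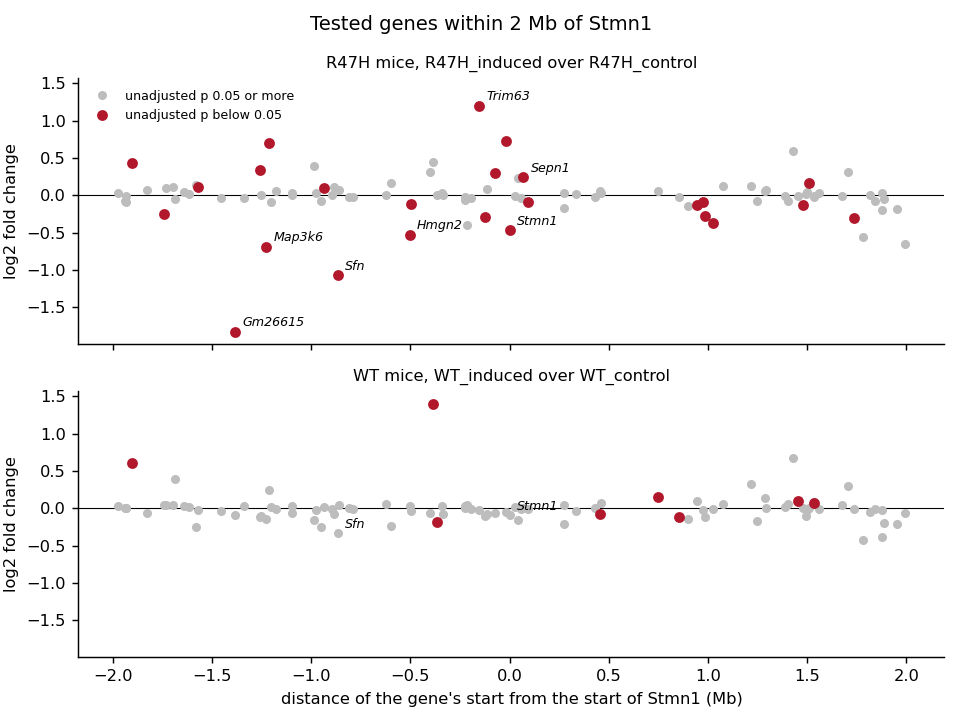
Log2 fold change (induced over control) of the 99 tested genes within 2 Mb of Stmn1 against the distance of each gene's start from that of Stmn1 in Mb, in R47H mice (top) and WT mice (bottom), with genes at an unadjusted p below 0.05 in red. Red points number 25 in R47H mice, with values on both sides of 0, and 8 in WT mice.

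Outside this window, the genes with the lowest p differed by small amounts. Siah2, a ubiquitin ligase of the hypoxia response, had 10.5 to 11.6 CPM in R47H_induced and 8.89 to 9.95 CPM in R47H_control, with no overlap and a log2 fold change of 0.21 (SE 0.05). Etv6, a transcriptional repressor, had 15.9 to 19.1 CPM in R47H_induced and 19.2 to 22.3 CPM in R47H_control, at -0.19 (SE 0.05). Sox8, a glial transcription factor, was at 0.21 (SE 0.05), Fnip1, a partner of folliculin and AMPK, at 0.15 (SE 0.04) and Klhl21, with 20.5% of its exon bases in another annotated gene, at 0.20 (SE 0.05). The edgeR adjusted p of these 5 genes was 0.668 to 0.731.

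The groups did not overlap for 67 genes (0.34%), 35 higher and 32 lower in R47H_induced. Among those with proper symbols and a mean of at least 1 CPM, the largest log2 fold changes above 0 were those of Per1, Rasl11a (0.34, SE 0.14), Pvr (0.31, SE 0.09), Dyrk3 (0.28, SE 0.08) and Map2k3 (0.22, SE 0.07). Map2k3 is a kinase upstream of p38, Dyrk3 a kinase that dissolves stress granules and Pvr a cell adhesion receptor. The largest below 0 were Ppp1r3e (-0.55, SE 0.19), a glycogen-targeting phosphatase subunit, Runx1 (-0.53, SE 0.19), a transcription factor of blood and myeloid cells, Lyz2, Stab1 and Fcor (-0.30, SE 0.11). Runx1 had 0.726 to 1.155 CPM in R47H_induced and 1.159 to 1.99 CPM in R47H_control.

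Whether the induction differed between R47H and WT mice was tested as the difference of the 2 log2 fold changes. Of 19678 genes 0 had an adjusted p below 0.05 in edgeR (lowest 0.303), and 1562 (7.94%) had an unadjusted p below 0.05. DESeq2 called 3 genes and limma-voom 0. Glra1, a glycine receptor subunit, had the lowest p: its induction was -0.54 (SE 0.16) in R47H mice and 0.61 (SE 0.16) in WT mice, a difference of -1.15 (SE 0.23) with an edgeR adjusted p of 0.303. Other genes with low p were Pcdh17 (-0.19, SE 0.04), Hecw2 (0.28, SE 0.06) and Chn1os3 (0.31, SE 0.08).

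For the genes described above the inductions lay as follows. Per1 was at 0.40 (SE 0.10) in R47H mice and -0.13 (SE 0.10) in WT mice, a difference of 0.53 (SE 0.15) with an edgeR adjusted p of 0.433. Nr4a1 was at 0.65 (SE 0.32) in R47H mice and -0.26 (SE 0.32) in WT mice. Of the immediate early genes 27 of 29 were positive in R47H mice and 5 of 29 in WT mice (52.7% and 50.9% of all genes), and of the clock genes 18 of 22 in R47H mice and 6 of 22 in WT mice. Gjb2 was at -0.34 (SE 0.09) in R47H mice and 0.13 (SE 0.09) in WT mice, a difference of -0.47 (SE 0.13) with an edgeR adjusted p of 0.433. Stab1 had the same sign and nearly the same size in both lines, at -0.32 (SE 0.08) in R47H mice and -0.30 (SE 0.08) in WT mice, a difference of -0.02 (SE 0.11). Trem2 was at -0.25 (SE 0.10) in R47H mice and 0.05 (SE 0.10) in WT mice, a difference of -0.30 (SE 0.14) with an edgeR adjusted p of 0.623. None of these differences passed over all genes.

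**Figure D5:**
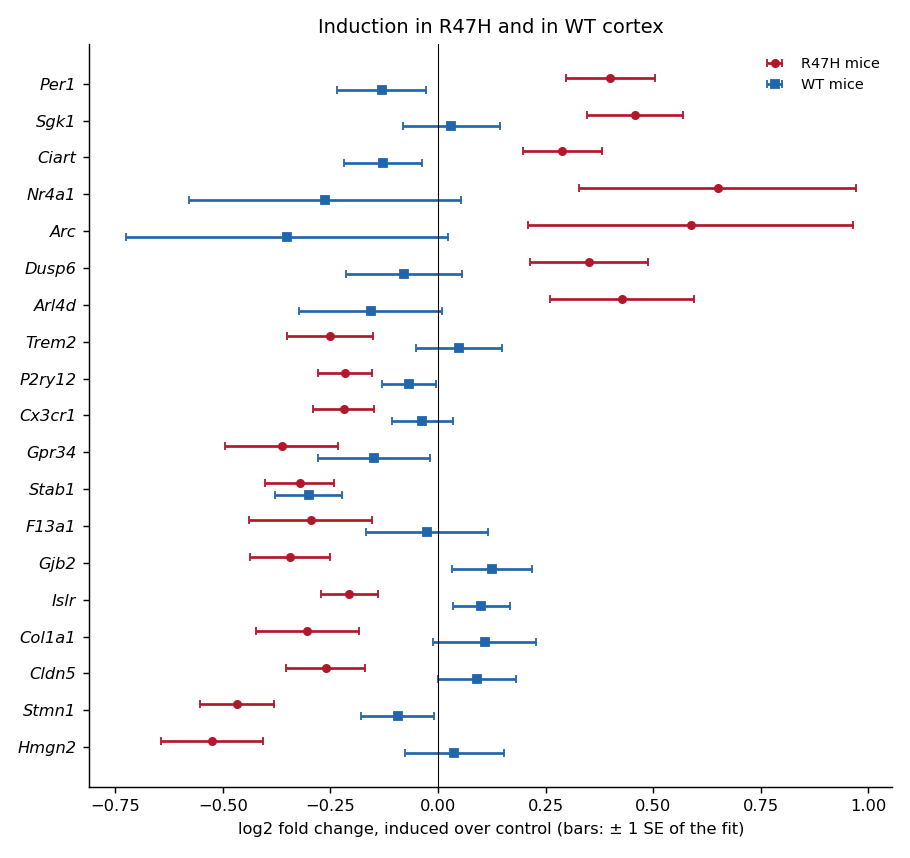
Log2 fold change of induced over control, ± 1 SE of the fit, for 19 genes in R47H mice (red circles, upper mark of each pair) and WT mice (blue squares). Per1 is at 0.40 in R47H mice and -0.13 in WT mice, and Stab1 at -0.32 and -0.30.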

How the data were processed

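Cortex RNA of 24 mice was sequenced, 1 library per mouse, with groups set by the labelled genotype and treatment. The authors deposited raw counts, 1 whole number per gene and library, with no normalization. STAR 2.5.2b, featureCounts 1.5.1 and mm10 are named in the submitters' processing notes; neither the strand setting nor the treatment of reads that match several places is stated in the labels. Per the labels' protocols the TruSeq RNA kit v2 was used, which does not mark strand. Reads of genes with near-identical copies, such as Hmgn2, are uncertain because the treatment of reads that match several places is not known.

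Of 43346 genes 19678 passed edgeR's filterByExpr and were tested with edgeR 4.0.16 in R 4.3.3 (TMM scaling, robust quasi-likelihood F-test, 1 fit over 24 libraries, Benjamini-Hochberg adjustment over the tested genes). CPM values are relative to the TMM-scaled total, and the SE is that of the fit. Each of the 60 same-group pairs of libraries differed beyond sampling noise, so every library counts once. The fit was tested on simulated data. Alternatives were other scalings, filters and tools (DESeq2 1.42.0, limma-voom in limma 3.58.1), covariates, a fit on the 12 R47H libraries and each library left out. Fits on the 12 libraries with a sex term or without R47H_induced replicate 3, and with the rRNA-like share but without WT_induced replicate 6, were chosen after seeing the data.

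The members and the 37 gene lists were chosen with earlier results of these data known, and no list was tested as a set. Named genes are Trem2, the 15 lowest p, key list members, up to 3 list members with the lowest p, the 5 largest changes in each direction without overlap, the 5 lowest p for the difference of inductions, and 8 genes near Stmn1. Precision is limited by 6 mice per group. Some genes that this rule names are not reported here.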

Additional observations from a re-analysis of the deposited data

Results flagged for a closer look

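Dixon's test was applied to each named gene within each R47H group, and 21 of 194 groups of 6 libraries held a value standing apart at the 95% level, where chance gives about 9.7. No explanation was tested for any of them.

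In R47H_induced replicate 3, Stmn1 was at 98.5 CPM and Hmgn2 at 18.2 CPM, both above the other R47H_induced libraries, and Runx1 was at 0.726 CPM, below them. R47H_induced replicate 1 was the highest of its group for Fnip1 (85.1 CPM), P2ry13 (11.5 CPM), C3 (5.515 CPM) and Irf7 (1.53 CPM). R47H_induced replicate 5 was the lowest for Ppp1r3e (3.79 CPM) and the highest for Islr (21.3 CPM). R47H_induced replicate 4 was the highest for Tmem119 (17.6 CPM), and R47H_induced replicate 6 the lowest for Atf4 (70.3 CPM) and Plcg2 (2.74 CPM).

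In R47H_control replicate 5, Nr4a1 was at 99.0 CPM, above the other control libraries, and Ppp1r3e at 6.78 CPM, below them. R47H_control replicate 2 was the highest for Arrdc2 (7.23 CPM), Cyp51 (53.3 CPM) and Dcn (19.7 CPM). R47H_control replicate 3 was the lowest for Mbp (1144 CPM). R47H_control replicate 4 was the highest for Gpr34 (12.2 CPM) and the lowest for Lum (1.39 CPM), and R47H_control replicate 1 the lowest for Dbp (66.9 CPM).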

How the results depend on the processing

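The count of called genes for the R47H induction was 0 under RLE size factors, library totals, both other filters, limma-voom, edgeR without robust estimation, and with sex or the share of rRNA-like counts in the model. It was 4 with DESeq2 (Stmn1, Hmgn2, Map3k6, Sfn), 1 on the 12 R47H libraries (Per1), 1 with sex added to that fit and 2 when that fit left out R47H_induced replicate 3 (Stmn1, Per1), the last 2 chosen after seeing the data. Leaving out 1 library of the 24 gave 0 to 2 calls: 2 without R47H_induced replicate 3 (Stmn1, Hmgn2) and 1 without WT_induced replicate 6 (Stmn1). With library totals 1817 genes were higher and 150 lower at an unadjusted p below 0.05. For the difference of inductions DESeq2 called 3 genes, and leaving out 1 library gave 0 to 1. The difference in the rRNA-like share ranged from -3.93 to -2.47 points, and its exact permutation p passed 0.05 without R47H_induced replicate 3, 5 or 6 or R47H_control replicate 1. With that share in the model Yam1 and AY036118, which with Lars2 make up the share, turned to log2 fold changes of 0.0330 and 0.0358, and to 0.0373 and 0.0441 when WT_induced replicate 6 was also left out, a fit chosen after seeing the data that called 0 genes. Other causes were not tested. No paired analysis was possible because the replicate numbers only name libraries in the order of deposition.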
